A study of Homo sapiens with 8 samples.

Results

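The nuclear receptors are transcription factors that in nearly all members combine a zinc-finger domain that binds DNA with a pocket that can hold a small lipophilic ligand. Steroid hormones, thyroid hormone, retinoic acid, vitamin D, fatty acids, oxysterols and bile acids act through them, whereas the orphan receptors have no established natural ligand or work without one. Many bind DNA together with a retinoid X receptor, recruit corepressors when empty and exchange them for coactivators when a ligand is bound, and in the uterus the estrogen and progesterone receptors govern the growth and quiescence of smooth muscle.

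The 46 genes described here were chosen by gene symbol as members of this superfamily, out of 60282 genes listed for each library, and the rule that chose them uses no measured value. RNA was measured in SK-UT-1 cells, a long-established human line grown from a uterine leiomyosarcoma (uLMS), a malignant tumor of uterine smooth muscle. Cells were given TP-472, a small-molecule inhibitor of the bromodomain protein BRD9, at 5 µM for 48 h, or DMSO as vehicle, with 4 libraries in each group. The descriptions name no genetic modification and no difference between the groups other than the compound, and, although the study states that its experiments had biological replicates, they tie no library to a separate culture. The p-values measure the spread between these libraries, which may be technical in part. Total counts per library ranged from 32574716 to 36634184 with vehicle and from 36246466 to 38545695 with TP-472.

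Levels are given as CPM, the counts scaled to a common library size after scaling by the TMM method, and a gene was taken as expressed and tested when it exceeded 1 CPM, here before TMM scaling, in at least 4 of the 8 libraries. This held for 29 of the 46 receptor genes, and the other 17 are described from their counts. A gene was called differentially expressed at an adjusted p under 0.05, over all 14073 genes tested with edgeR, and a change of more than 1.5-fold. In bulk RNA, fewer cells with a transcript and less of it per cell cannot be told apart.

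Smooth muscle markers were present at very unequal levels. Of 10 smooth muscle markers 9 were tested, and together the 10 genes summed to 805, 878, 1210 and 880 CPM in vehicle replicates 1 to 4 and to 732, 741, 749 and 683 CPM with TP-472. TPM2, a tropomyosin, had the highest CPM of the markers, with a vehicle mean of 448 CPM, followed by CALD1 (200) and ACTA2 (160). CNN1, LMOD1 and DES had vehicle means of only 1.26, 2.53 and 3.25 CPM. MYH11, the smooth muscle myosin heavy chain, was nearly absent, with 0, 0, 0 and 1 count in the vehicle libraries. It had 10, 8, 7 and 10 counts with TP-472, higher in every treated library but under the filter. Of the 9 tested markers 4 fell with TP-472 (DES, LMOD1, MYLK and TAGLN) and none rose, with a median log2 fold change of -0.67. Over all tested genes 14.9% were called lower and 12.0% higher. DES and LMOD1 passed the filter only through the vehicle libraries and so had to differ to be tested. Without vehicle replicate 3 ACTA2 was added to them, which gave 5, and with a correction for GC content TAGLN was lost, which left 3. Endothelial markers summed to no more than 0.144 CPM with vehicle and 0.687 CPM with TP-472. Leukocyte markers summed to at most 13.0 CPM, nearly all of it CD68, with CD3E at 0 throughout and PTPRC at 0 in all but 1 library. Epithelial markers summed to between 18.2 and 27.8 CPM, with KRT18 and KRT19 at the highest CPM, and CDH1 below 1 CPM in every library. Of the 3 tested, KRT18 rose (log2 fold change 1.08), KRT19 fell (-0.85) and KRT8 was not called (0.52). With GC correction KRT19 was not called (-0.50) and KRT8 was (0.68). The part of these marker differences in the changes of the receptor genes was not tested.

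Vehicle replicate 3 stood apart from the other libraries. Its median Spearman correlation with the other vehicle libraries across genes was 0.914, against 0.988 or higher for the other vehicle libraries and 0.993 or higher within the TP-472 group. Genes with the most GC bases (above 56.2% of the longest transcript) exceeded those with the fewest (below 42.0%), relative to the mean of all libraries, by a median of 1.45 on the log2 scale in this library. In the 7 other libraries this value lay between -0.41 and -0.07. The receptor genes have a median GC content of 54.2%, against 48.2% for all tested genes. All 14 tested receptor genes above 55% GC were higher in vehicle replicate 3 than in the mean of the other vehicle libraries, with a median log2 difference of 0.91, and 8 of the 9 below 45% GC were lower, with a median of -0.37. Over the 29 genes this log2 difference followed GC content with a Pearson r of 0.81 and a Spearman rho of 0.81, and over 13970 tested genes with r = 0.73 and rho = 0.77. These correlations describe a single library across genes, which share its depth and composition. The changes of the tested receptor genes are therefore given with and without vehicle replicate 3, and for other genes it is said where a call differs.

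**Figure D1:**
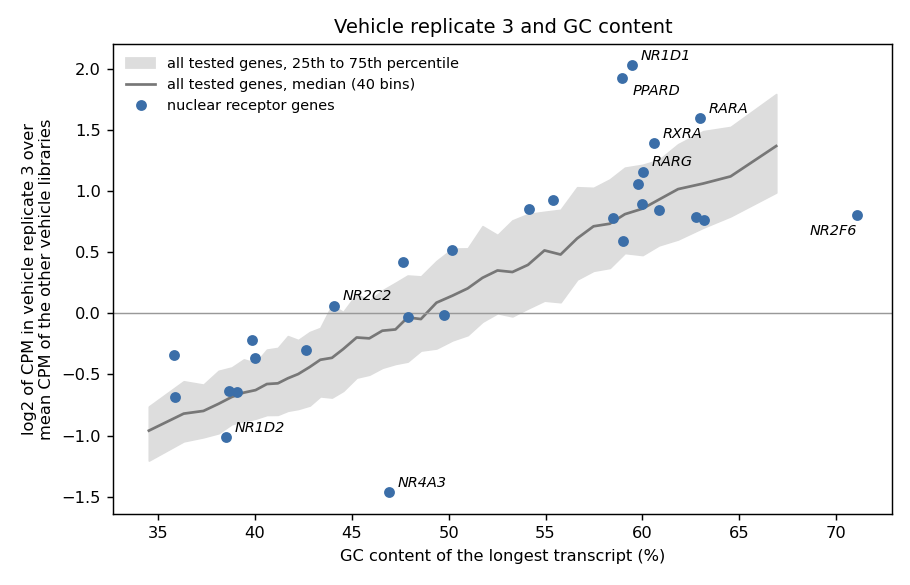
Log2 ratio of the CPM in vehicle replicate 3 to the mean CPM of the other 3 vehicle libraries (y axis) against the GC content of the longest transcript in percent (x axis). Blue points are the 29 tested nuclear receptor genes, the grey line is the median of all tested genes in 40 bins of GC content and the band spans their 25th to 75th percentile; all 14 receptor genes above 55% GC lie above 0.

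With TP-472, 16 of the 29 tested receptor genes were differentially expressed, 4 higher and 12 lower. This is 55.2% of the receptor genes tested, against 26.9% of all genes tested, and the difference lay on the falling side. For higher genes the share was 13.8% beside 12.0% of all genes, and for lower genes it was 41.4% beside 14.9%. The median log2 fold change was -0.47 over the 29 receptor genes and -0.03 over all tested genes. Of the 29 values 23 were below 0, beside 51.8% of all tested genes. Without vehicle replicate 3 the values of RARA, PPARD, NR1H2 and NR1D1 turned above 0. Without vehicle replicate 3 the same 16 genes were called and NR1D2 was added, which gave 4 higher and 13 lower beside 25.5% of all genes, with a median of -0.42. With a correction for GC content 5 were higher and 14 lower, beside 28.3% of all genes. The values of the 8 libraries did not overlap between the groups for 17 receptor genes (58.6%, against 45.4% of all genes), and for 25 (86.2%, against 58.5%) without vehicle replicate 3. Among both the 16 and the 17 genes are NR4A2, NR4A3 and NR5A1, which passed the filter through the libraries of 1 group only and so had to differ. These shares are descriptions, and no test of the receptor genes as a set was made. By class, all 3 NR4A genes rose, both tested retinoid X receptor genes fell, and 5 of the 10 tested orphan receptor genes outside the NR4A group fell. Of the 5 tested thyroid hormone, retinoic acid and vitamin D receptor genes, 3 fell and 1 rose.

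**Figure D2:**
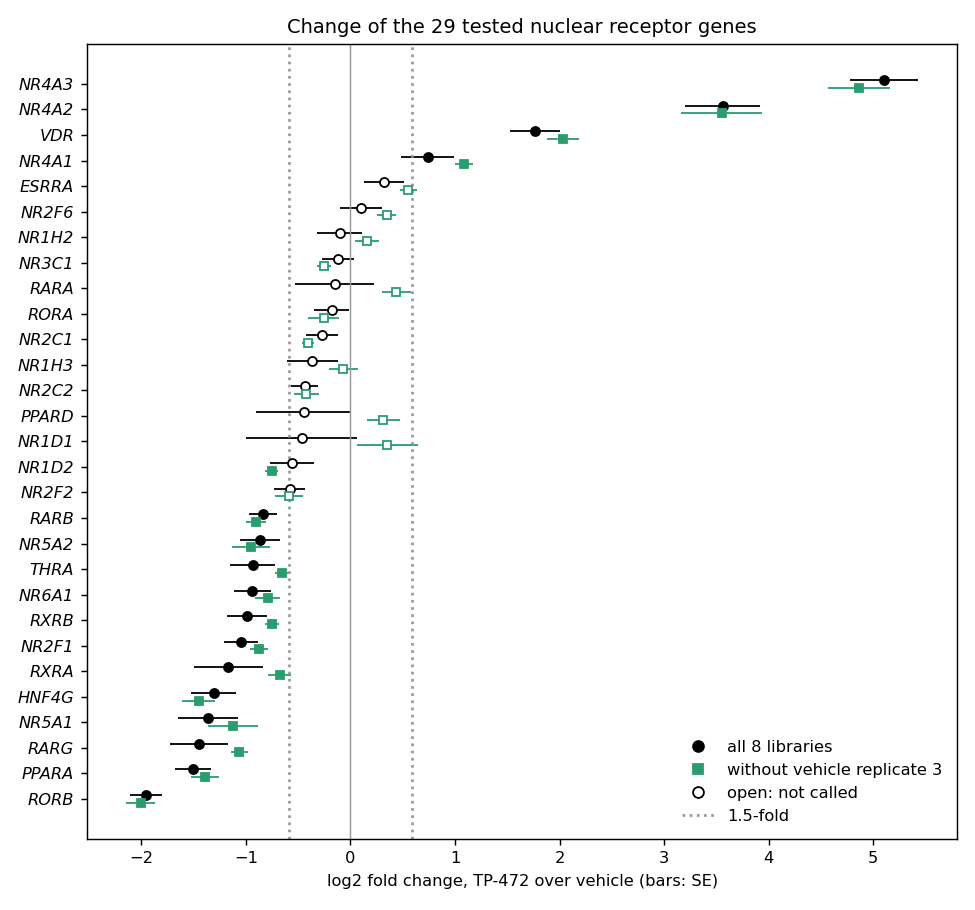
Log2 fold change of TP-472 over vehicle (x axis, bars SE from edgeR) for the 29 tested nuclear receptor genes, with all 8 libraries (black circles) and without vehicle replicate 3 (green squares). Filled symbols are called and open ones are not; dotted lines mark 1.5-fold, 4 genes lie above the upper one as filled circles and 12 below the lower one.

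NR4A3, NR4A2 and NR4A1 encode the orphan receptors NOR-1, NURR1 and NUR77, immediate-early genes whose transcription is known to follow growth factors, calcium and cAMP within minutes, and whose proteins act without a ligand. NR4A3 stood at 0.139, 0.172, 0.0579 and 0.169 CPM in vehicle replicates 1 to 4 and at 3.68, 4.37, 4.52 and 6.39 CPM in the TP-472 libraries. The vehicle values rest on 5, 6, 2 and 6 counts. Every treated library lay more than an order of magnitude above every vehicle library, and NR4A3 went from the lowest of the 29 genes per length of transcript to a place above 8 of them. Its log2 fold change was 5.10 ± 0.32 (SE, edgeR adjusted p = 3.86e-05), a 34.4-fold difference, and 4.86 without vehicle replicate 3. NR4A2 had 0.305, 0.144, 0.174 and 0.0843 CPM with vehicle and 1.71, 1.78, 2.03 and 2.99 CPM with TP-472. The groups did not overlap, and its log2 fold change of 3.56 ± 0.36 (edgeR adjusted p = 0.000260) corresponds to 11.8-fold, with 3.55 on the log2 scale without vehicle replicate 3. Both genes passed the filter only through the TP-472 libraries, where all 4 exceeded 1 CPM, so that each had to differ to be tested. NR4A1 was the most abundant of the trio per length in both groups. It had 6.01, 6.64, 13.5 and 6.83 CPM with vehicle and 14.4, 13.8, 13.3 and 13.5 CPM with TP-472. Vehicle replicate 3 lay within the treated range, and the other vehicle libraries lay below it. The log2 fold change of NR4A1 was 0.74 ± 0.25 (edgeR adjusted p = 0.0459) with all libraries and 1.08 (adjusted p = 1.03e-05) without vehicle replicate 3. Leaving out any of the 7 other libraries ended this call, with log2 fold changes of no less than 0.61, as did upper-quartile or total-count scaling.

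NR4A3 had the largest change of the superfamily, so the promoter of this gene is shown. The sequence covers 250 bases before to 50 bases after the transcription start in RefSeq (GRCh38.p14, chr9:99821635-99821934, plus strand), 5′ to 3′. Capitals mark matches to TGACG on either strand, the core of the cAMP response element, which CREB and ATF proteins are known to bind.
NR4A3 promoter: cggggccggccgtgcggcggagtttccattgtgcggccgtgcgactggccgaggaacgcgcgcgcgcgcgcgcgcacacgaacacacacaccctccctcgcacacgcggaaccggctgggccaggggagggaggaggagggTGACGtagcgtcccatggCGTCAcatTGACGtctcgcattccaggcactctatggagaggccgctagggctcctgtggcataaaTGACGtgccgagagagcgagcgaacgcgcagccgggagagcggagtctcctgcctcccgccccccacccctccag
It holds 4 matches, from 109 to 25 bases before the start. At least 1 match is present in 24.6% of the 35116 promoters of this length in the table, and at least 4 in 0.313%. Of the 96 promoter entries of the 41 receptor genes in the table, 21 (21.9%) had a match, none of them of NR4A1 or NR4A2. A match is a run of letters and not evidence of binding.

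VDR, the receptor for active vitamin D, was the only other receptor gene that rose among the 29. It had 1.63, 1.29, 2.66 and 1.49 CPM with vehicle and 6.24, 5.13, 5.99 and 6.74 CPM with TP-472. The highest vehicle value, in replicate 3, was still below the lowest treated value. The log2 fold change of VDR was 1.77 ± 0.24 (edgeR adjusted p = 0.000989) and 2.03 without vehicle replicate 3.

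The 3 retinoic acid receptor genes did not move together. RARG, the form prominent in skin and cartilage, had 46.4, 37.0, 92.3 and 40.6 CPM with vehicle and 20.1, 20.2, 19.4 and 19.6 CPM with TP-472. Treated libraries varied little and all lay below every vehicle library. Its log2 fold change was -1.45 ± 0.28 (edgeR adjusted p = 0.00452), and -1.06 without vehicle replicate 3. RARB, itself a classic retinoic acid target gene, had 17.6, 20.7, 15.7 and 19.7 CPM with vehicle and 10.4, 9.02, 10.8 and 11.1 CPM with TP-472. No treated value reached the vehicle range, and the log2 fold change of -0.84 ± 0.13 (edgeR adjusted p = 0.00197) became -0.90 without vehicle replicate 3. RARA, the most widely expressed form, had 5.79, 4.31, 14.8 and 4.55 CPM with vehicle and 7.25, 5.81, 6.603 and 6.84 CPM with TP-472. Only vehicle replicate 3 lay above the treated values, and the direction turned on it. The log2 fold change was -0.15 ± 0.38 (edgeR adjusted p = 0.772) with all libraries and 0.44 (adjusted p = 0.0205) without that library, under the 1.5-fold limit in both.

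The RARB promoter is shown because the known retinoic acid response element of this gene lies in it and the transcript fell here. It is the RefSeq sequence of GRCh38.p14, chr3:25428013-25428312, plus strand, 5′ to 3′, over the same span around the start. Capitals mark the match to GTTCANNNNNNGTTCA, searched on both strands.
RARB promoter: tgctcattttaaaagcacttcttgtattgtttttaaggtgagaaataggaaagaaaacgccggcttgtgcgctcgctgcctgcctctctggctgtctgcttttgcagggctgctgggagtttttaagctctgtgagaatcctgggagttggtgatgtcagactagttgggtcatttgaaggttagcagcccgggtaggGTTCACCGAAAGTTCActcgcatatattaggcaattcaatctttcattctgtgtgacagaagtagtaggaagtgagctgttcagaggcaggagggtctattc
The match begins 52 bases before the start. This motif was found in 20 of the 35116 promoters (0.0570%), and in no other receptor gene. The single hexamer AGGTCA, which many nuclear receptors recognize, was in 13.8% of all promoters and in 16 of the 96 entries of the receptor genes (16.7%).

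THRA encodes the thyroid hormone receptor alpha. It had 23.8, 24.8, 45.2 and 24.6 CPM with vehicle and 16.2, 16.1, 14.7 and 14.8 CPM with TP-472. All treated libraries lay below the vehicle libraries, with replicate 3 far above the rest. Its log2 fold change was -0.94 ± 0.22 (edgeR adjusted p = 0.0103), -0.66 without vehicle replicate 3 and, with a correction for GC content, -0.58 (adjusted p = 0.000164), which is under the 1.5-fold limit. The last exons of THRA lie opposite those of NR1D1, and the overlap covers 3.78% of the exon bases of THRA and 9.49% of those of NR1D1.

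RXRA and RXRB encode retinoid X receptors, the obligate partners of the retinoic acid, thyroid hormone, vitamin D and fatty acid receptors. RXRA had 32.3, 24.8, 71.4 and 24.6 CPM with vehicle and 18.9, 16.9, 16.5 and 15.7 CPM with TP-472. The groups did not overlap, but replicate 3 carried much of the distance. Its log2 fold change of -1.17 ± 0.33 (edgeR adjusted p = 0.0244) was -0.68 (adjusted p = 0.000694) without that library. Leaving out any single TP-472 library ended the call of RXRA, with log2 fold changes that stayed between -1.33 and -0.68 over all libraries left out. It also ended with sample quality weights in limma-voom (-0.53) and with GC correction without vehicle replicate 3 (-0.57), both under the 1.5-fold limit. RXRB had 29.6, 28.97, 51.1 and 30.5 CPM with vehicle and 17.7, 18.0, 18.3 and 16.7 CPM with TP-472. Again no value overlapped, and the log2 fold change was -0.99 ± 0.19 (edgeR adjusted p = 0.00500) and -0.75 without vehicle replicate 3. RXRG, the form of muscle and brain, was under the filter, with 21, 15, 14 and 15 counts in the vehicle libraries and 3, 5, 5 and 8 in the TP-472 libraries. Its groups did not overlap either (exact two-sided permutation test, p = 0.0286, the smallest value that 4 against 4 libraries can give).

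**Figure D3:**
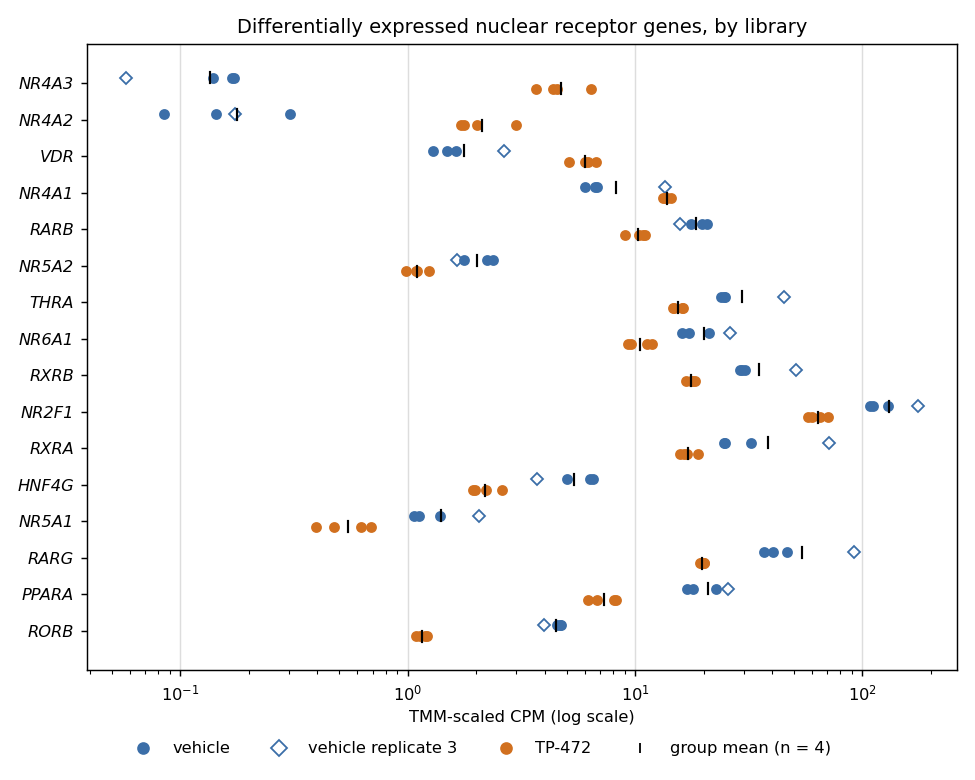
TMM-scaled CPM in each library (x axis, log scale) of the 16 differentially expressed nuclear receptor genes, ordered by log2 fold change. Blue symbols are vehicle, with replicate 3 as open diamonds, orange circles are TP-472 and black ticks are group means (n = 4); the groups overlap only for NR4A1, where vehicle replicate 3 stood at 13.5 CPM.

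Among the sensors of lipids and foreign compounds, PPARA fell. It encodes a fatty acid receptor that drives fatty acid oxidation in liver and muscle. PPARA had 22.6, 16.96, 25.6 and 18.1 CPM with vehicle and 8.05, 6.20, 6.80 and 8.24 CPM with TP-472. The lowest vehicle value was more than double the highest treated one, and the log2 fold change was -1.51 ± 0.17 (edgeR adjusted p = 0.000441) and -1.39 without vehicle replicate 3. PPARD, the widely expressed relative, was not called. It had 28.8, 19.0, 85.6 and 19.9 CPM with vehicle and 24.3 to 33.6 CPM with TP-472, and its log2 fold change turned from -0.45 to 0.32 without vehicle replicate 3. The oxysterol receptor genes NR1H2 and NR1H3 (liver X receptors beta and alpha) were not called either, with log2 fold changes of -0.10 and -0.36, the latter -0.07 without vehicle replicate 3. NR1H2 had 34.5 ± 11.9 CPM with vehicle and 32.1 ± 3.52 CPM with TP-472 (SD, n = 4), and NR1H3 had 3.38 ± 1.26 and 2.62 ± 0.112 CPM. The value of NR1H2 also turned, to 0.16, when vehicle replicate 3 was left out.

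RORB and the genes NR1D1, NR1D2 and RORA encode receptors of the circadian clock, in which ROR proteins activate and REV-ERB proteins (NR1D1 and NR1D2) repress through the same DNA element. RORB, best known from neural tissue and retina, had 4.74, 4.51, 3.995 and 4.69 CPM with vehicle and 1.19, 1.13, 1.08 and 1.22 CPM with TP-472. Both groups were tight and far apart. The log2 fold change of RORB, -1.96 ± 0.15 (edgeR adjusted p = 7.81e-05), was the largest fall among the 29 genes, with values between -2.01 and -1.93 whichever library was left out. NR1D2 had 85.6, 91.9, 42.9 and 82.5 CPM with vehicle and 50.8, 49.9, 51.5 and 53.3 CPM with TP-472. Vehicle replicate 3 alone lay below the treated libraries, and in the main fit the call turned on it. NR1D2 was also called with all libraries under GC correction (-0.70) and with sample quality weights in limma-voom. In the main fit the log2 fold change was -0.56 ± 0.21 (edgeR adjusted p = 0.0663) with all libraries and -0.75 (adjusted p = 9.43e-06) without vehicle replicate 3. NR1D1 went the other way in that library, at 9.70 CPM beside 1.72 to 3.24 CPM in the other vehicle libraries and 2.16 to 4.57 CPM with TP-472. Its log2 fold change was -0.47 with all libraries and 0.35 without replicate 3, called in neither. RORA was at 2.58 to 3.69 CPM with vehicle and 2.50 to 2.95 CPM with TP-472, with a log2 fold change of -0.18, and -0.26 without vehicle replicate 3.

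Of the orphan receptors, NR2F1 (COUP-TFI, a developmental repressor) was the most abundant receptor gene per length. It had 129, 111, 175 and 108 CPM with vehicle and 65.4, 57.6, 60.2 and 70.8 CPM with TP-472. All treated libraries lay far below the vehicle range, and the log2 fold change was -1.05 ± 0.17 (edgeR adjusted p = 0.00198) and -0.87 without vehicle replicate 3. NR2F2 (COUP-TFII), needed for the uterine response to progesterone, had 10.9, 8.51, 9.15 and 8.35 CPM with vehicle and 6.65, 5.27, 5.88 and 6.84 CPM with TP-472. The groups did not overlap, but at a log2 fold change of -0.58 ± 0.15 (edgeR adjusted p = 0.0161) NR2F2 lay just under the 1.5-fold limit, and it was called in 13 alternative fits, 4 of them among the 8 that left out a library and others with DESeq2, other scalings, other filters or GC correction. Without vehicle replicate 3 it remained under the limit, at -0.58. NR2F6, the third COUP-TF relative, stood at 26.6 to 47.2 CPM with vehicle and 30.6 to 39.6 CPM with TP-472 and was not called, with a log2 fold change of 0.10, and 0.35 (edgeR adjusted p = 0.00802) without vehicle replicate 3.

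HNF4G encodes a fatty acid binding relative of the hepatocyte factor HNF4A. It had 5.02, 6.52, 3.71 and 6.35 CPM with vehicle and 2.20, 1.97, 2.61 and 1.93 CPM with TP-472. The groups were separate, with a log2 fold change of -1.31 ± 0.22 (edgeR adjusted p = 0.00234) and -1.45 without vehicle replicate 3. NR6A1, the germ cell nuclear factor, had 21.2, 16.1, 26.0 and 17.3 CPM with vehicle and 11.2, 9.61, 9.35 and 11.9 CPM with TP-472. It fell in every treated library relative to every vehicle library, by 0.94 ± 0.18 on the log2 scale (edgeR adjusted p = 0.00415), and by 0.79 without vehicle replicate 3.

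NR5A1 (SF-1) and NR5A2 (LRH-1) encode phospholipid-binding receptors that control steroid-producing enzymes, NR5A1 in adrenal gland and gonad. NR5A1 had 1.39, 1.12, 2.06 and 1.07 CPM with vehicle and 0.621, 0.395, 0.472 and 0.687 CPM with TP-472. It passed the filter only through the vehicle libraries, so it had to differ to be tested. Its log2 fold change was -1.36 ± 0.29 (edgeR adjusted p = 0.00706) and -1.12 without vehicle replicate 3. NR5A2 had 2.38, 2.24, 1.65 and 1.77 CPM with vehicle and 1.24, 1.10, 1.08 and 0.978 CPM with TP-472. Its groups did not overlap, and the log2 fold change was -0.87 ± 0.19 (edgeR adjusted p = 0.00837), and -0.95 without vehicle replicate 3. Both genes thus fell, at levels near the filter. NR5A1 and NR6A1 are neighbors on chromosome 9, where GENCODE release 29 (GRCh38) places NR5A1 at 124481236 to 124507430 and NR6A1 at 124517275 to 124771310, both on the minus strand.

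The remaining tested orphan receptor genes were not called. NR2C2 (TR4) had 83.4 to 105 CPM with vehicle and 61.3 to 81.8 CPM with TP-472, without overlap, and a log2 fold change of -0.44 (edgeR adjusted p = 0.0294) that was short of 1.5-fold, as was -0.42 without vehicle replicate 3. It was called only with a correction for GC content, at -0.61. NR2C1 (TR2), its dimer partner, had a log2 fold change of -0.27, or -0.41 (edgeR adjusted p = 0.000312) without vehicle replicate 3, called in neither, and was lowest among the vehicle libraries in replicate 3, at 27.5 CPM beside 41.9 to 44.3 CPM, with 31.3 to 33.5 CPM under TP-472. ESRRA, the estrogen-related receptor that drives mitochondrial genes, went from 24.1 ± 7.37 to 30.1 ± 0.673 CPM (SD, n = 4), a log2 fold change of 0.32 (edgeR adjusted p = 0.212). Without vehicle replicate 3 the groups did not overlap and the value was 0.55 (adjusted p = 0.000375), under the 1.5-fold limit. ESRRA was called only in fits with GC correction, at 0.73 with all libraries. Parts of the exons of NR2C2 (10.1%) and ESRRA (9.37%), and also of RARA (11.8%) and NR4A1 (10.3%), lie opposite those of another gene.

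NR3C1, the glucocorticoid receptor, was the sole tested gene of the 5 steroid hormone receptors. It had 56.1, 57.3, 35.5 and 53.0 CPM with vehicle and 43.4, 46.6, 45.9 and 50.01 CPM with TP-472, so only vehicle replicate 3 kept the groups from separating. The log2 fold change was -0.12 (edgeR adjusted p = 0.564), and -0.26 (adjusted p = 0.00804) without that library, far from 1.5-fold in both. ESR1 and PGR, the estrogen receptor alpha and progesterone receptor genes that define hormone-responsive myometrium, were nearly silent. ESR1 had 1 count in vehicle replicate 2 and none in the other vehicle libraries, beside 3, 1, 3 and 1 with TP-472. PGR had no count in any vehicle library, which allows up to 3 counts in each, or 0.0921 CPM before TMM scaling in the shallowest, and had 2, 3, 0 and 2 counts with TP-472. ESR2, the estrogen receptor beta gene, had at most 5 counts per vehicle library and 9.71 to 13.1 with TP-472, without overlap (exact two-sided permutation test, p = 0.0286). The mineralocorticoid receptor gene NR3C2 had 5, 8, 0 and 4 counts with vehicle and 8, 12, 13 and 20 with TP-472 (exact two-sided permutation test, p = 0.0571).

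Of the 17 receptor genes under the filter, 9 had more than 3 counts in some library and were tested singly, and 4 of these did not overlap between the groups. The share was 45.4% over all genes that passed the filter, and none was computed for genes under it. RXRG and ESR2 are given above. THRB, the thyroid hormone receptor beta gene, fell from 53, 46, 38 and 35 counts to 19, 18, 12 and 13 (exact two-sided permutation test, p = 0.0286). NR1H4, the bile acid receptor FXR, had 0, 0, 0 and 1 count with vehicle and 17, 3, 13 and 7 with TP-472 (exact two-sided permutation test, p = 0.0286). NR1H4 met the rule for a test only through the TP-472 libraries, so that it had to differ to be tested. The p of 0.0286 is the smallest possible here and is not adjusted over the 9 genes. In an edgeR fit without a filter on low counts, adjusted over all genes, these 4 had adjusted p-values of 0.00404 for THRB, 0.0195 for RXRG, 0.0239 for ESR2 and 0.00417 for NR1H4. ESRRB, PPARG, NR2E3 and HNF4A had at most 11 counts in any library, with overlapping groups (exact two-sided permutation test, p from 0.0857 to 0.571). The other 8 genes, ESR1, PGR, NR1I2, NR1I3, NR2E1, ESRRG, NR0B2 and NR0B1, had at most 3 counts in every library. NR1I2 and NR1I3 encode the drug sensors PXR and CAR, and NR0B1 and NR0B2 the receptors without a DNA-binding domain. NR0B1 was at 0 in all 8 libraries.

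Levels can be compared between genes only per length, here as CPM per kb of exon, and the order given is that of the tested receptor genes. In vehicle NR2F1 led with 30.4 ± 7.17 CPM per kb (SD, n = 4), followed by NR1D2 with 13.0 ± 3.82, NR2F6 with 12.0 ± 3.77 and RARG with 10.5 ± 5.02. Apart from NR2F1, these leading neighbors differed by less than their SD. NR4A2 and NR4A3 closed the order with 0.0445 ± 0.0235 and 0.0213 ± 0.00842 CPM per kb. With TP-472 the order was again led by NR2F1, with 14.7 ± 1.35 CPM per kb, whereas NR4A3 reached 0.751 ± 0.184 and VDR moved from 0.312 ± 0.108 to 1.06 ± 0.118 CPM per kb. RORB then stood lowest of the tested receptor genes, at 0.120 ± 0.00631 CPM per kb. Exon lengths come from GENCODE release 29, while the counts rest on release 34.

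**Figure D4:**
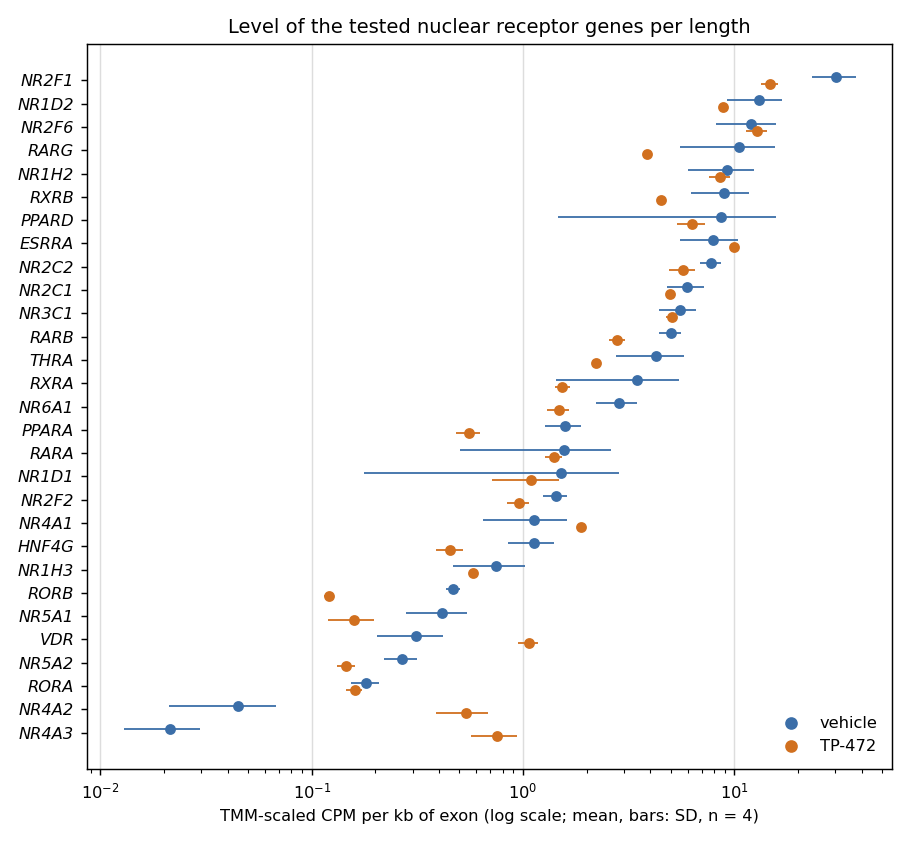
Level of the 29 tested nuclear receptor genes in CPM per kb of exon (x axis, log scale), as mean and SD of 4 vehicle (blue) and 4 TP-472 (orange) libraries, ordered by the vehicle mean. NR2F1 led in both groups, at 30.4 and 14.7, and NR4A3 moved from 0.0213 to 0.751.

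The genes that work with these receptors were read from 11 lists of coregulators, ligand metabolism and target genes, which hold 154 different genes, 102 of them tested. Of the 102 genes 21 rose and 21 fell, 41.2% beside 26.9% of all tested genes. The lists were chosen with earlier results of these data known, so this share is a description and not a test. By direction, 12.0% of all tested genes were higher and 14.9% lower, and the counts of each list below stand beside these shares. Coactivators and corepressors bridge receptors to the transcription machinery. Of 14 tested coactivator genes NCOA4 rose (log2 fold change 0.63, and 0.46 and no longer called without vehicle replicate 3) and NCOA3 fell (-0.71). The median of the list was -0.38, and -0.20 without vehicle replicate 3. PPARGC1B was not called with all libraries (0.51) but was without vehicle replicate 3 (0.74). With GC correction none rose and 5 fell, the steroid receptor coactivator genes NCOA1, NCOA2 and NCOA3 together with NCOA6 and CREBBP. PRMT1, the coactivator gene with the highest CPM, was not called. Of 12 tested corepressor genes NRIP1 (0.86) and GPS2 (0.59) rose and 2 fell, among them TBL1X (-1.27), with a median of -0.21. TRIM28, the gene of this list with the highest CPM, was not called.

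Genes of retinoid handling changed in both directions, 3 higher and 2 lower of 9 tested, with a median log2 fold change of 0.24. This median was 0.05 without vehicle replicate 3 and 0.13 with GC correction. RDH10, which oxidizes retinol, rose by 1.69 on the log2 scale, CYP26B1, which degrades retinoic acid, by 1.36 and CRABP2, which carries it to the nucleus, by 1.07. CYP26B1 exceeded 1 CPM in every TP-472 library but with vehicle in replicate 3 alone, so the filter favored its rise. DHRS3, which reduces retinal back to retinol, had a log2 fold change of -1.53. ALDH1A1, a retinal dehydrogenase and the gene of the list with the highest CPM, at 2679 ± 851 CPM with vehicle, was not called. In the list of 7 tested retinoic acid receptor targets, 3 rose and 3 fell. TGM2, a transglutaminase, had 93.7, 86.4, 147 and 90.2 CPM with vehicle and 391, 398, 371 and 406 CPM with TP-472. All treated libraries stood far above the vehicle libraries, with a log2 fold change of 1.91 ± 0.18 (edgeR adjusted p = 0.000186). RARRES3 (PLAAT4), a phospholipase that is also induced by interferon, fell from 7.69 ± 1.98 to 1.76 ± 0.382 CPM (SD, n = 4), a log2 fold change of -2.12. CYP26B1, DHRS3 and CRABP2 are counted in both lists, and RARB itself is the remaining target that fell.

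Among 6 tested genes of thyroid hormone and vitamin D metabolism, 2 rose and 2 fell. CYP24A1, which inactivates vitamin D and is a direct target of its receptor, rose from 6.87 ± 0.561 to 14.2 ± 0.673 CPM (SD, n = 4; log2 fold change 1.05, edgeR adjusted p = 0.000407), and so moved in the same direction as VDR. CYP27A1, a sterol hydroxylase, had a log2 fold change of -1.26. SLC16A10, a gene of thyroid hormone transport, rose by 0.62, a call that was lost without vehicle replicate 3. CYP2R1, with the highest mean CPM over both groups, was not called. CYP27A1 stood above it with vehicle (15.2 beside 9.86 CPM) and CYP24A1 with TP-472 (14.2 beside 12.8 CPM). Of 8 tested genes of steroid metabolism none rose, and SULT2B1 (-1.13) and AKR1C1 (-0.63, not called without vehicle replicate 3) fell. SULT2B1 passed the filter only through the vehicle libraries, so its fall was a condition of being tested. HSD17B4, with the highest CPM, was not called.

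Glucocorticoid receptor targets had the highest median of the lists at 0.58, with 7 of 14 tested genes higher and 2 lower. Over all tested genes the shares were 12.0% higher and 14.9% lower. CRISPLD2, ANGPTL4, ERRFI1 and RGS2 rose by 2.25, 2.21, 1.80 and 1.75 on the log2 scale. MT2A had the highest mean CPM over both groups, although ERRFI1 stood above it with TP-472 (567 beside 497 CPM). MT2A was not called with all libraries, but was without vehicle replicate 3 (0.73) and with GC correction (0.63). TSC22D3, which is among the 7, had 0.63 and was not called without that library, at 0.52. The zinc-finger genes KLF9 (-1.52) and KLF15 (-1.48) fell. KLF15 exceeded 1 CPM in every vehicle library but with TP-472 in replicate 3 alone, so the filter favored its fall. ANGPTL4 is also a PPAR target, and ERRFI1 and RGS2 are feedback genes of growth factor and G protein signaling. NR3C1 itself was not called. The estrogen and progesterone receptor target list had 2 of 8 tested genes higher, NRIP1 and SIAH2 (0.63), and none lower. Without vehicle replicate 3 SIAH2 was not called (0.58) and RET was, with log2 fold changes of 0.37 with all libraries and 0.72 without that one. IGFBP4, with the highest CPM, was not called.

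Of 7 tested liver X receptor targets none rose and 2 fell. SREBF1, the regulator of fatty acid synthesis, had 77.1, 53.1, 198 and 54.0 CPM with vehicle and 18.3, 18.9, 17.0 and 20.5 CPM with TP-472. The treated libraries were tight and below all vehicle libraries, with a log2 fold change of -2.35 (edgeR adjusted p = 0.00328) and -1.72 without vehicle replicate 3. LPCAT3 fell by 0.66 and lost its call without that library, whereas SCD, with the highest CPM, was not called. PPAR targets were split, 2 higher and 3 lower of 12 tested. ANGPTL4 and HILPDA (0.71) rose, and CREB3L3 (-2.77), PDK4 (-1.35) and FABP3 (-0.66) fell, with HADHA, with the highest CPM, at -0.01. Of these, CREB3L3 passed the filter only through the vehicle libraries and had to differ. Genes of the clock loop were split as well, 3 higher and 3 lower of 11 tested. BHLHE40, a repressor, rose by 2.01 and ARNTL and NFIL3 by 0.82 and 0.78, and the output factors DBP (-2.63) and TEF (-1.09) and the clock gene PER3 (-1.48) fell. CRY1, with the highest mean CPM over both groups, was not called. With vehicle CLOCK stood above it, at 72.2 beside 58.0 CPM.

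**Figure D5:**
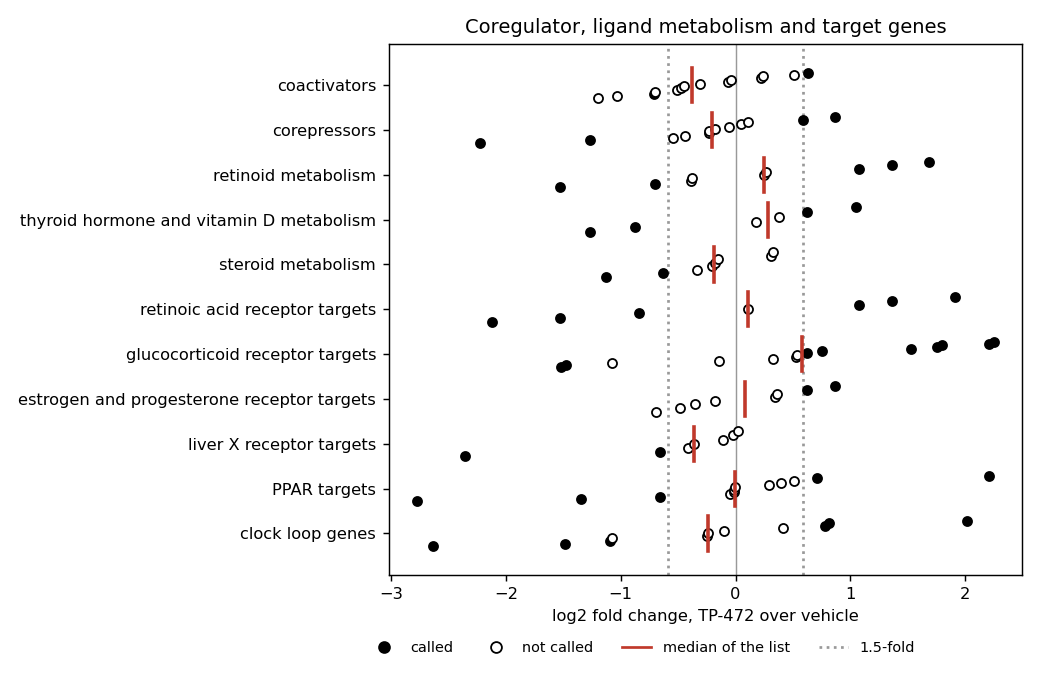
Log2 fold change of TP-472 over vehicle (x axis) for each tested gene of the 11 lists (rows). Filled points are called, open points are not, the red line is the median of a list and dotted lines mark 1.5-fold. With all libraries the median was highest for glucocorticoid receptor targets, at 0.58, and lowest for coactivators, at -0.38. Steroid metabolism was lowest without vehicle replicate 3 (-0.31, coactivators -0.20) and with GC correction (-0.36, coactivators -0.32).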

How the data were processed

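RNA-seq of 8 SK-UT-1 libraries, 4 with vehicle and 4 with TP-472, was analysed. The values deposited by the authors are estimated counts: reads were quantified with Salmon 1.4.0 per the submitters' processing notes (GRCh38) and summed to genes with GENCODE release 34, neither normalized nor filtered. The study describes strand-specific libraries, whereas the kit named in the labels does not mark strand, so reads of overlapping opposite genes may not be told apart.

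Estimated counts were rounded. Genes above 1 CPM in at least 4 libraries (14073) were tested with edgeR 4.0.16 (R 4.3.3; quasi-likelihood F test), with TMM scaling, no covariate and Benjamini-Hochberg adjustment over all tested genes. A call needed an adjusted p under 0.05 and a change over 1.5-fold, and the SE is the log2 fold change divided by the square root of F. Receptor genes under the filter with more than 3 counts in a library were tested by an exact permutation test over 70 assignments. The receptor genes and lists were chosen with earlier results of these data known. All receptor genes are named, and from each list up to 4 called genes with the largest change plus the gene with the highest mean CPM. Some list genes are counted but not reported singly here. Alternatives were DESeq2 1.42.0, limma 3.58.1 (voom, with and without quality weights), other scalings, filters and thresholds, robust fits, a replicate block, GC correction (spline with 5 degrees of freedom), unrounded counts and each library left out. GC correction without vehicle replicate 3 was added after seeing the data. Leave-one-out fits kept the same 14073 genes. GC content was known for 99.3% of these. Coordinates and exon lengths come from GENCODE release 29 (GRCh38), promoters from RefSeq (GRCh38.p14, 41 of 46 genes matched). The scripts were tested on simulated data. Totals were at least 32574716 counts per library, and whether depth or the spread between libraries limits precision was not tested. A count of 0 allows up to 3 counts, for counting error only. Copies among the libraries were looked for, and the closest pair differed by a mean chi-square of 13.8 per gene.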

Additional observations from a re-analysis of the deposited data

Results flagged for a closer look

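Among the 58 sets of 4 libraries formed by the 29 tested receptor genes in the 2 groups, 9 held a library far from the other 3 by Dixon's criterion. Chance gives about 5% for a single set, but these sets share the same libraries and are not independent. In all 9 the library was vehicle replicate 3, which was the highest library for 8 genes and the lowest for 1. It stood at 45.2 CPM for THRA (other vehicle libraries 23.8 to 24.8), at 14.8 for RARA (4.31 to 5.79) and at 92.3 for RARG (37.0 to 46.4). For the retinoid X receptor genes it stood at 71.4 CPM for RXRA (24.6 to 32.3) and at 51.1 for RXRB (28.97 to 30.5). It had 85.6 CPM for PPARD (19.0 to 28.8), 47.2 for NR2F6 (26.6 to 27.2) and 13.5 for NR4A1 (6.01 to 6.83), and 27.5 CPM for NR2C1, below the 41.9 to 44.3 of the others. NR2C1 has 38.7% GC, and the other 8 genes have at least 58.5%. The cause was not tested.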

How the results depend on the processing

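Over 657 values of single receptor genes under alternative settings, 593 kept their direction and side of the threshold, 19 lost and 23 gained a call, and 22 changed sign, none of them called in both. Changes of sign concerned 4 genes that were not called. RARA came to 0.048 with limma-voom, 0.52 with quality weights, 0.38 with GC correction, 0.41 with the replicate block and GC correction, 0.44 without vehicle replicate 3 and 0.56 with GC correction as well. In the same order from quality weights on, PPARD came to 0.42, 0.0036, 0.12, 0.32 and 0.42, NR1H2 to 0.11, 0.26, 0.27, 0.16 and 0.26, and NR1D1 to 0.36, 0.012, 0.10, 0.35 and 0.47. Over the 8 fits that left out a library, RARA ran from -0.34 to 0.44, PPARD from -0.67 to 0.32, NR1H2 from -0.24 to 0.16 and NR1D1 from -0.73 to 0.35, above 0 only without vehicle replicate 3.

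Receptor genes called higher numbered 4, but 0 with a filter of 5 CPM before TMM scaling, under which NR4A2, NR4A3 and VDR are not tested and NR4A1 is not called, and those called lower numbered 12, but 7 at a 2-fold limit. The number expressed fell from 29 to 19 at more than 5 CPM. Over all tested genes 1693 were higher and 2096 lower, and 639 and 1065 at 2-fold. Leaving out each library gave 1387 to 2399 lower genes over all, and 3 to 4 higher and 11 to 13 lower receptor genes. The lowest count, 1387, came without TP-472 replicate 3. Of the 16 called receptor genes 14 were called whichever library was left out, and RXRA and NR4A1 were not. Same-numbered libraries did not deviate together (correlations -0.06, 0.12, -0.17 and -0.18), so the numbers were not taken as pairs. With the replicate block 4 receptor genes were higher and 12 lower, as without it, and RARA came to 0.050.

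The planned search of receptor proteins was not run. Receptor genes near 1 CPM, among them NR5A1 and NR5A2, have few counts per library, from 14 to 86 for that pair.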

Other observations

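The table lists 11 antisense or intronic RNA genes named after a receptor gene, and 2 of them were tested. NR2F1-AS1, transcribed opposite to NR2F1, had 84.8, 59.6, 65.7 and 61.7 CPM with vehicle and 45.99, 43.2, 38.6 and 59.9 CPM with TP-472. The highest treated value exceeded the lowest vehicle value, and the log2 fold change of -0.53 ± 0.17 (edgeR adjusted p = 0.0352) was short of 1.5-fold. Exons of both genes overlap over 3.66% of those of NR2F1. RARA-AS1 had 0.887 to 1.79 CPM with vehicle and 0.951 to 2.17 CPM with TP-472, with a log2 fold change of 0.22 (edgeR adjusted p = 0.614). If strand was not used in the counting, reads of such pairs could not be told apart.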
